A study of Mus musculus with 6 samples.

Results

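Small RNA sequencing of muscle cell-derived extracellular vesicles and of bone cells was examined for 6 microRNA (miRNA) precursor entries that act on the osteoblast programme, namely mir-204, mir-211, mir-218-1, mir-218-2, mir-335 and mir-31. They were taken by name from a table of 1006 entries, and all 6 were listed in it. The 6 libraries comprised 2 of Myo-EVs, the extracellular vesicles of the mouse myoblast line C2C12, 2 of FFSS-Myo-EVs, the vesicles of C2C12 cells exposed to fluid flow shear stress (FFSS) on an orbital shaker, 1 of primary osteoblasts (OB) of the mouse and 1 of primary mouse marrow cells (BM). The C2C12 cells behind all 4 vesicle libraries grew in medium with vesicle-depleted serum, the vesicles were collected by ultracentrifugation, and 90 ng of total RNA entered each library. The mice for OB and BM were 81.25% C57BL/6J, with the remaining 18.75% of the background from 129/SvJ. The labels give this background for the C2C12 vesicles as well, and an age of 8 to 10 weeks for OB and BM, whereas the methods describe osteoblasts grown out of neonatal calvariae at the second passage. One growth text is attached to all libraries. It names vitamin D or dexamethasone and leaves FFSS out, so the FFSS group rests on the sample titles. OB and BM are 1 library each, so that their levels have no replicate error, and nothing states whether the vesicle replicates came from separate cultures.

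Osteoblasts arise from mesenchymal progenitors under the transcription factors Runx2 and, downstream of it, Osterix (gene Sp7), and canonical Wnt signalling drives the same lineage while the secreted inhibitors Dkk1, Dkk2, sclerostin (Sost) and Sfrp2 restrain it. miR-204 and its relative miR-211 are known to repress Runx2 and to favour adipocytes over osteoblasts. miR-31 is known to repress Osterix. miR-218 is known to act on Wnt inhibitors and also on Runx2, and miR-335 on Dkk1. The study looked for miRNAs that FFSS raised in muscle vesicles and that were abundant there compared with bone cells. It speculated that miRNAs abundant in vesicles and scarce in bone may link muscle to bone on delivery. In its osteoblast cultures, neither Myo-EVs nor FFSS-Myo-EVs changed Runx2 or Osterix mRNA, alkaline phosphatase activity or mineralization.

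The mature forms show which entries can be told apart by sequence. They are given from RefSeq (GRCm38.p6, in which all 6 entries were found), with the seed, bases 2 to 8, which pairs with the target, in capitals.
miR-31-5p: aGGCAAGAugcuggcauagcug
miR-335-5p: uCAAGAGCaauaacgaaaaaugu
miR-218-5p: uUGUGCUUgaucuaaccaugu
miR-204-5p: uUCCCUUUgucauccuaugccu
miR-211-5p: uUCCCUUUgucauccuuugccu
miR-204-5p and miR-211-5p share their seed and differ by 1 substitution, A17U, counted from 1 at the 5′ end with the base of miR-204-5p first. miR-218-5p is the same molecule from both mir-218 precursors, which share a stretch of 22 bases. A read of miR-218-5p therefore cannot be assigned to either copy, and the 2 entries are not independent measurements. The table lists precursors and does not separate the 5p from the 3p arm. No other mature mouse miRNA in the RefSeq table had the seed of miR-31-5p or of miR-335-5p.

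Each of the 6 lies within another gene on the same strand in the GENCODE M21 annotation of GRCm38. mir-204 is in an intron of Trpm3 (chromosome 19, 22750605 to 22750672), and mir-211 in one of the related channel gene Trpm1 (chromosome 7, 64205806 to 64205911). Introns of Slit2 and Slit3 hold mir-218-1 (chromosome 5, 48223942 to 48224051) and mir-218-2 (chromosome 11, 35616816 to 35616925). mir-335 is on chromosome 6 (30741299 to 30741396), inside an intron of Mest, an imprinted gene. mir-31 is on chromosome 4 from 88910557 to 88910662, minus strand, in an exon of a long noncoding RNA.

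The bone targets were searched for the 7-base complement of each seed, on the sense strand of the longest annotated 3′ untranslated region of the gene. The first line shows the match of miR-31-5p in Sp7, which lies 35 bases past the stop codon, the next a match of miR-218-5p in Runx2, and the last a match of miR-204-5p and miR-211-5p in Runx2. Capitals mark the match.
Sp7 at chr15:102358095-102358115: agctccagggtccTCTTGCCa
Runx2 at chr17:44606570-44606590: atattaaaaagccAAGCACAa
Runx2 at chr17:44607490-44607510: gtggtgcactcagAAAGGGAc
All 3 are on the minus strand of GRCm38. Counting every match, TCTTGCC of miR-31-5p was found once each in Sp7 and Dkk1. AAGCACA of miR-218-5p was found at 3 places in Dkk2 and at 2 each in Runx2, Sost and Sfrp2. AAAGGGA of miR-204-5p and miR-211-5p was found at 2 places each in Runx2 and Sost and once in Sp7. GCTCTTG of miR-335-5p was not found in any of these 6 regions (Runx2, Sp7, Dkk1, Dkk2, Sost and Sfrp2). Among the 3′ untranslated regions of 21020 genes, 11.19% hold TCTTGCC, 13.8% AAGCACA, 14.92% AAAGGGA and 11.96% GCTCTTG. These shares were not matched for length, and the regions searched ran from 894 bases in Sfrp2 to 2184 in Dkk2 and 3904 in Runx2. Of the 3p arms, which the levels do not separate from the 5p arms, miR-335-3p (ATGAAAA, in 19.8% of all regions) had 2 in Dkk2 and 1 in Runx2, and miR-204-3p (TTCCCAG, 19.41%) had 1 each in Sost and Sfrp2. miR-211-3p (GTCCTTG, 11.44%) had 1 in Dkk1, miR-218-1-3p (CCATGTT, 12.48%) 1 in Runx2, miR-31-3p (GCATAGC, 5.51%) 1 in Dkk2 and miR-218-2-3p (GAACCAT, 7.31%) none. These are matches of letters and were not measured as sites in these cells.

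The total count was 5181296 in OB, 6092460 in BM and from 2414132 to 3029524 in the vesicle libraries. Levels are given as the authors' normalized expression value, which is the count times 1 constant per library, and 1 count was worth between 0.397 and 1.198 on this scale. The blood cell miRNAs followed the labels in sum. The mesenchymal miRNAs did so between OB and BM only, and the skeletal muscle list did so through mir-206. The summed value of the blood cell list (mir-223, mir-142a, mir-150, mir-144 and mir-451a) was 20347.7 in BM and 175.7 in OB. It was 15 and 10.8 in the vesicles without FFSS and 50.9 and 43.2 in those with FFSS. The summed value of the mesenchymal list was 469574 in OB against 20790.9 in BM. This sum includes mir-199a-1 and mir-199a-2, at 87356 and 88096 in OB, and may hold the same reads under both. In the vesicles the mesenchymal sum was 326803 and 428560 without FFSS, and 372501 and 388546 with FFSS. That list therefore does not set OB apart from the vesicles. Of the skeletal muscle list, mir-206 had a mean of 2166.9 in Myo-EVs and 2607.4 in FFSS-Myo-EVs, against 91.7 in OB and 7.9 in BM. The mir-1a entries of the same list went the other way, with 30.6 in BM and 0 in all vesicle libraries for mir-1a-1, and 31.4 in BM and means of 4.5 and 1 in the vesicle groups for mir-1a-2.

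The vesicles carried mainly 1 of the osteoblast regulators. mir-31 made up between 97.17% and 98.43% of the summed value of the 6 entries in the vesicle libraries, but 19.85% in OB and 8.285% in BM. In OB the leading entry was mir-335 with 67.49%, and in BM the mir-218 entries with 38.37% and 39.79%. How reads that match both mir-218 entries were counted is not given, so the sum and the shares may hold the same reads under both. The sum itself was of like size in OB (0.2857% of all counts) and in the vesicle libraries (0.320% to 0.4365%), and lower in BM (0.009323%).

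**Figure D1:**
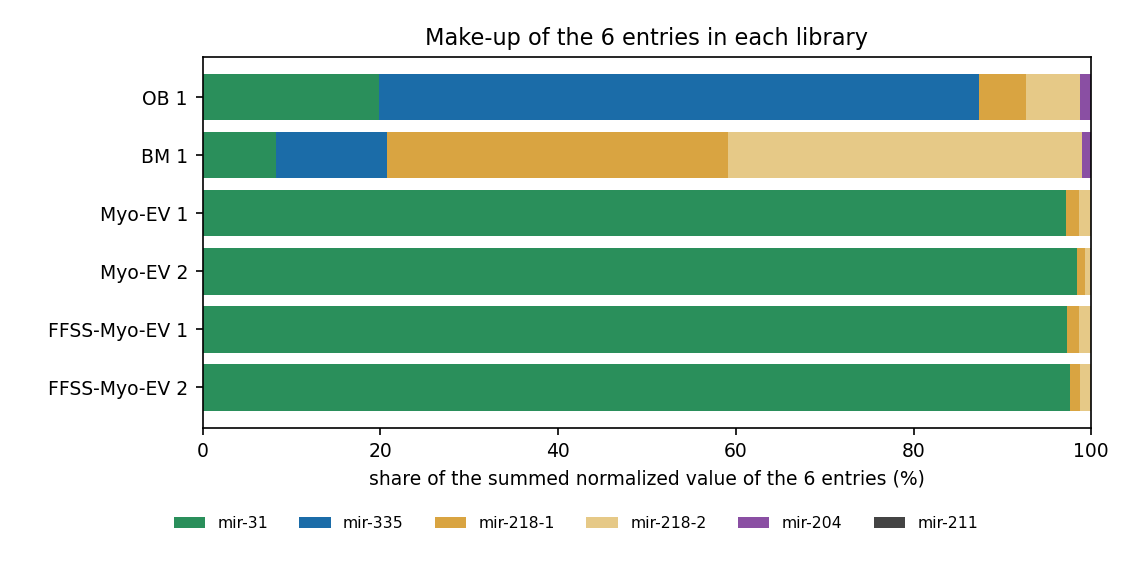
Share of each of the 6 entries in their summed normalized expression value (%, x axis) in each library (y axis). mir-31 fills over 97% of the bar in the 4 vesicle libraries, mir-335 leads in OB with 67.49%, and the mir-218 entries lead in BM.

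mir-31, the miRNA that acts on Osterix, had a value of 9823.5 and 12423.5 in Myo-EVs. With FFSS the values were 9396.2 and 9864.6. It was 1622.5 in OB (95% interval 1564 to 1682, 2938 counts) and 18.7 in BM (13.7 to 24.8, 47 counts). Every vesicle library was thus above both bone cell libraries. Intervals in parentheses were computed from the counts by the exact Clopper-Pearson method. PCR copies were not marked by molecular identifiers, so that only counting error is covered. mir-31 ranked between 28 and 33 among the 1006 entries in the vesicle libraries, 99 in OB and 301 in BM. The mean was 11123.5 ± 1838.5 (SD, n = 2) in Myo-EVs and 9630.4 ± 331.2 (SD, n = 2) in FFSS-Myo-EVs. FFSS-Myo-EVs were therefore 5.94 times OB and 515.0 times BM, and Myo-EVs 6.86 times OB and 594.8 times BM. The ratio of FFSS-Myo-EVs to OB was 4.50 when all 6 libraries were scaled by median-of-ratios, and that to BM was 419.1 with each library scaled to a total of 1000000. Among the 114 entries with at least 1000 in FFSS-Myo-EVs, 10 including mir-31 were at least 5 times OB and at least 100 times BM. These limits were not planned, and mir-31 passes that of 5 on the authors' scale but not with median-of-ratios scaling.

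mir-335, the miRNA from the Mest intron that acts on Dkk1, showed the opposite distribution. The value of mir-335 was 5517.0 in OB (5409 to 5626, 9990 counts) and 28.2 in BM (22.0 to 35.6, 71 counts). Myo-EVs held 3 and 0 counts of it, values of 3 and 0, and FFSS-Myo-EVs held 1 and 3 counts, values of 1 and 3.3. From its rank of 55 in OB it thus dropped to ranks between 486 and 686 in the vesicles. With counts pooled over the libraries of a group, OB was 3368 times Myo-EVs (95% counting interval 1152 to 16332) and 2629.9 times FFSS-Myo-EVs (1027 to 9654). BM was 17.2 times Myo-EVs (5.66 to 85.4) and 13.4 times FFSS-Myo-EVs (5.03 to 50.7). Whether FFSS altered mir-335 was not detectable at this depth.

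The mir-218 entries, which share the mature form that acts on Wnt inhibitors and Runx2, were found in every library at moderate levels. mir-218-1 was 437.9 in OB (408.0 to 469.5), 86.6 in BM (75.5 to 98.9), 138.5 and 104.2 in Myo-EVs, and with FFSS 123.5 and 108.5. mir-218-2 was 491.5 in OB (459.7 to 524.9), 89.8 in BM (78.4 to 102.3), 144.6 and 93.4 in Myo-EVs, and with FFSS 136.5 and 130.7. Both were highest in OB, and the 2 vesicle groups overlapped. FFSS-Myo-EVs were 0.265 times OB for mir-218-1 (0.228 to 0.309) and 0.272 times OB for mir-218-2 (0.236 to 0.313). They were 1.34 times BM for mir-218-1 (1.11 to 1.63) and 1.49 times BM for mir-218-2 (1.24 to 1.79). The distance to BM is small beside the choice of scaling, since the ratio of mir-218-1 to BM was 1.09 with library totals of 1000000. The counting intervals of the 2 entries overlapped in OB, in BM and in all 4 vesicle libraries.

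mir-204 and mir-211, the pair with a common seed that acts on Runx2, were nearly absent from the vesicles. mir-204 had 184 counts in OB, a value of 101.6 (87.5 to 117.4), and 6 counts in BM, a value of 2.4 (0.875 to 5.19). Of the vesicle libraries, 1 of FFSS-Myo-EVs held 1 count and the other 3 held 0. OB was at least 62.0 times Myo-EVs, computed against 3 counts over the group, and 193.8 times FFSS-Myo-EVs (34.3 to 7694). mir-211 had 7 counts in OB, a value of 3.9 (1.55 to 7.96), 0 in BM and 0 in each Myo-EV library, and of FFSS-Myo-EVs 1 library had 0 and the other 1. In the Myo-EV libraries 3 counts, taken as the limit that a count of 0 allows, are a value of 3.01 and 3.59, and the upper ends of the exact intervals are 3.70 and 4.42. For mir-211 no difference between vesicles and BM was detectable. miR-204-5p and miR-211-5p differ at a single base, and the number of mismatches allowed by the authors is not given in the sources used here, so the few counts of mir-211 in OB could not be set apart from reads of the more abundant mir-204.

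**Figure D2:**
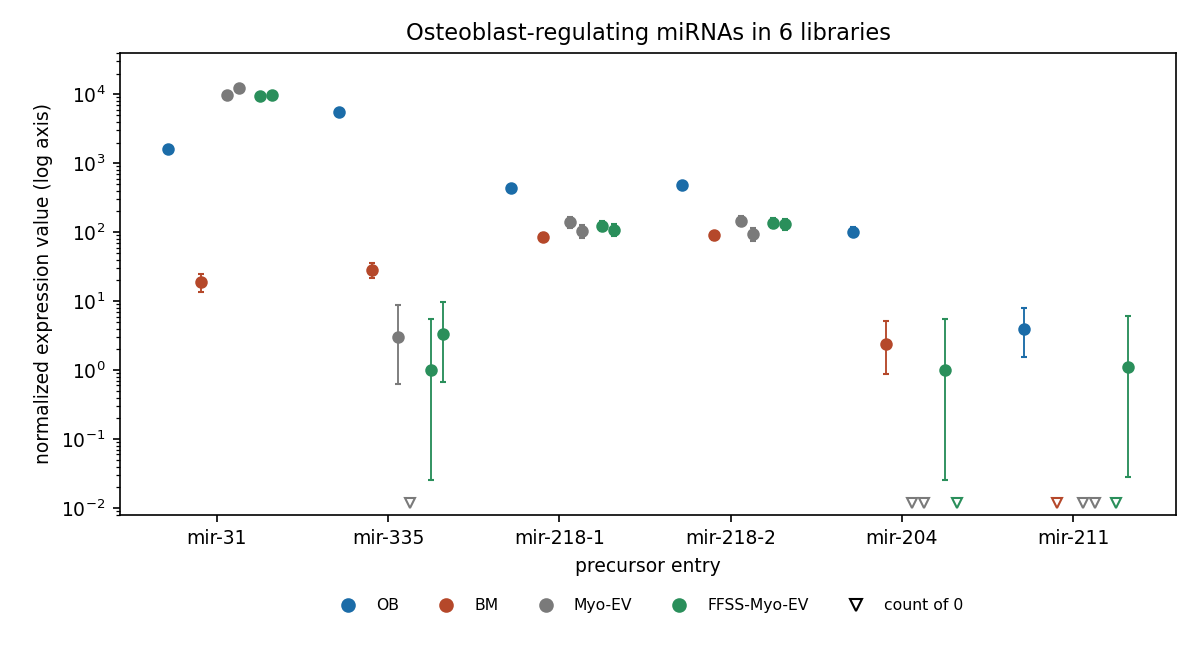
Normalized expression value (y axis, log) of the 6 entries (x axis) in each library, with 95% counting intervals as bars and open triangles for a count of 0. mir-31 lies between 9396.2 and 12423.5 in the vesicles, above OB and BM. mir-335 and mir-204 are highest in OB, at 5517.0 and 101.6, and at 0 to 3 counts in each vesicle library.

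Within each library the order of the entries was read from the same counting intervals. The mature forms are 21 to 23 bases long, and values were not corrected for length. In OB the order was mir-335, mir-31, the mir-218 entries with overlapping intervals, mir-204 and mir-211. In BM the mir-218 entries came first, again overlapping, followed by mir-335 and mir-31 with overlapping intervals, and then mir-204. In the vesicles it was mir-31 and then the mir-218 entries, with overlapping intervals of mir-335, mir-204 and mir-211 at the end. All 5 entries with at least 10 in OB or BM were at least 2 times higher in OB than in BM, compared with 34.8% of the 431 entries at that level. The 5 include both mir-218 entries, which are not independent. The ratio of OB to BM was 195.6 for mir-335 (155.0 to 250.7), 86.8 for mir-31 (65.2 to 118.6), 42.3 for mir-204 (19.2 to 117.7), 5.47 for mir-218-2 (4.73 to 6.36) and 5.06 for mir-218-1 (4.35 to 5.90).

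Against the whole table, a vesicle level above that of the cells was not uncommon. Of the 368 entries with at least 10 in FFSS-Myo-EVs, 46.7% were at least 2 times OB and 47.3% at least 2 times BM. Of the 3 osteoblast regulators at that level, 1, mir-31, was at least 2 times OB, and the same 1 at least 2 times BM. The remaining regulators at that level were the mir-218 entries, which are not independent. Passing both ratios was found for 35.9% of the 368, and for 31.6% of the 114 entries with at least 1000, to which mir-31 belongs. Conversely, of the 5 with at least 100 in OB, 2, mir-335 and mir-204, were below 10 in both vesicle groups, compared with 24.9% of the 221 entries of that level. The 5 again include both mir-218 entries. mir-204, at 101.6 in OB (87.5 to 117.4), passed the limit of 100 by less than its counting error. By level alone, mir-31 was thus the entry that the vesicles held above both bone cells, the mir-218 entries were held above BM by less than 2 times and below OB, and mir-335, mir-204 and mir-211 had no vesicle library above 3 counts. The values are relative to the other miRNAs of a library. Copies per vesicle or per cell and the transfer into bone cells are not measured by them.

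**Figure D3:**
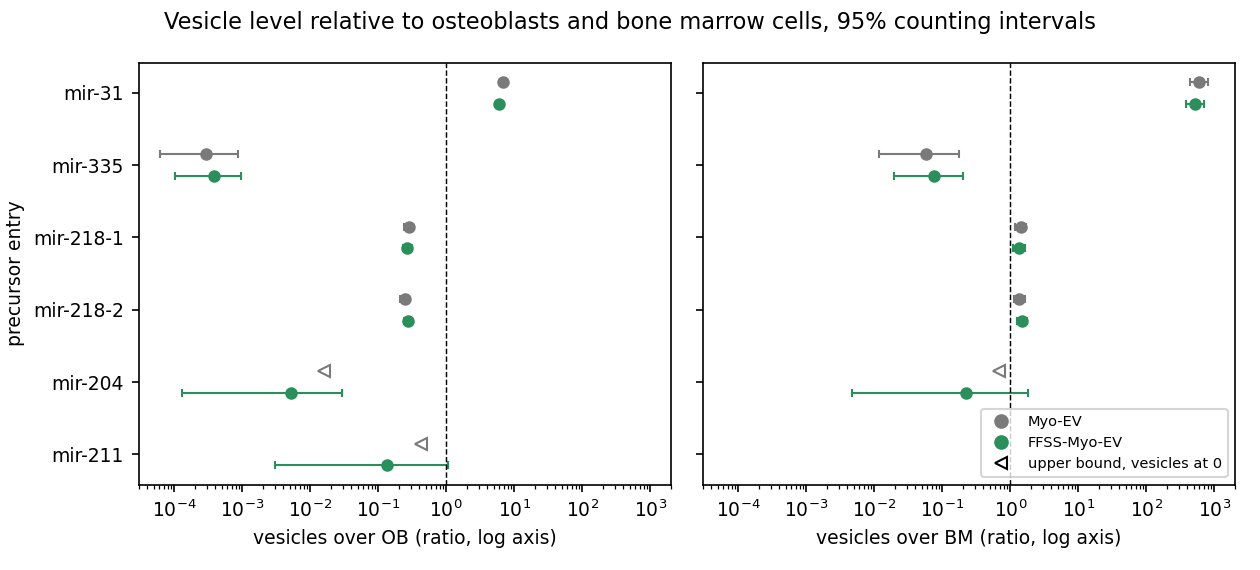
Ratio of the pooled vesicle level to that in OB (left) and BM (right) for each entry, on a log axis with 95% counting intervals, where the dashed line marks equal levels and open triangles are upper bounds. mir-31 lies above 1 in both panels, the mir-218 entries below 1 against OB and slightly above 1 against BM, and mir-335 far below 1. mir-211 is not drawn against BM, where both sides had 3 counts or fewer.

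To ask whether FFSS altered these miRNAs in the vesicles, the counts of the 4 vesicle libraries were fitted in edgeR over all 354 entries with a mean of at least 10. Of the 6 osteoblast regulators, 3 were tested, and none of the 3 was called at an adjusted p under 0.05 by the quasi-likelihood test of edgeR (Benjamini-Hochberg adjustment over the 354), compared with 30.5% of all entries tested, of which 12.1% were higher and 18.4% lower. DESeq2 and limma each called 0 of the 3 as well, and 1, mir-31, had an unadjusted edgeR p under 0.05, as did 39% of all entries. The mir-218 entries among the 3 share a mature form and are 1 measurement in effect. The log2 fold change of mir-31 was -0.33 (standard error 0.15, 95% interval -0.61 to -0.041, unadjusted p = 0.0252, adjusted p = 0.0753 in edgeR). In all 3 the vesicle groups overlapped on the authors' scale, whereas 36.7% of all entries were higher and 23.7% lower in both FFSS-Myo-EV libraries than in both Myo-EV libraries. For mir-31, the replicate 2 library of FFSS-Myo-EVs was above replicate 1 of Myo-EVs. Of the pair of Myo-EV libraries, the second was 1.27 times the first, and the call rests on which of them is kept. Without the first Myo-EV library the log2 fold change was -0.43 with an adjusted p of 0.00281 in edgeR, and without the second it was -0.11 with an adjusted p of 0.217 in edgeR. The direction was lower in FFSS-Myo-EVs in each of the 12 alternative analyses, whereas the size ranged from -0.43 to -0.11. With all 4 vesicle libraries kept, the unadjusted p also moved with scaling, filter and tool. It was 0.00926 in edgeR without a filter and 0.0118 in DESeq2, but 0.0846 in edgeR with library totals and 0.157 in limma. With the authors' scaling the log2 fold change was -0.21 (unadjusted p = 0.153 in edgeR).

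For mir-218-1 the log2 fold change was -0.20 (standard error 0.25, 95% interval -0.69 to 0.29, adjusted p = 0.637 in edgeR), and for mir-218-2 it was 0.026 (standard error 0.24, 95% interval -0.45 to 0.50, adjusted p = 0.962 in edgeR). Neither direction was stable. Without the first Myo-EV library mir-218-1 was at 0.095, and without the second mir-218-2 was at -0.20 on the log2 scale. The Myo-EV libraries themselves differed more than the groups did, with the second at 0.752 times the first for mir-218-1 and 0.646 times for mir-218-2. The median log2 fold change of the 3 was -0.20, which is the value of mir-218-1, compared with -0.025 over all entries tested. The summed value of the 5 blood cell miRNAs, low throughout the vesicles, was higher in both FFSS-Myo-EV libraries than in both Myo-EV libraries, although mir-150 and mir-144 taken singly were not separated. Of this list, mir-451a was called higher in FFSS-Myo-EVs, with a log2 fold change of 2.36 (adjusted p = 6.79e-05 in edgeR). That call rests on few reads. With FFSS the values of mir-451a were 25.9 and 17.7. Without FFSS they were 3 and 4.8, close to what 3 counts are worth there (3.01 and 3.59). mir-451a thus passed the filter of a mean of at least 10 only through the FFSS-Myo-EV group, and its call is not used as support. The others of the list had a vesicle mean under 10 and were not in the fit. The part of blood cell miRNAs in the differences between the vesicle groups was not tested.

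**Figure D4:**
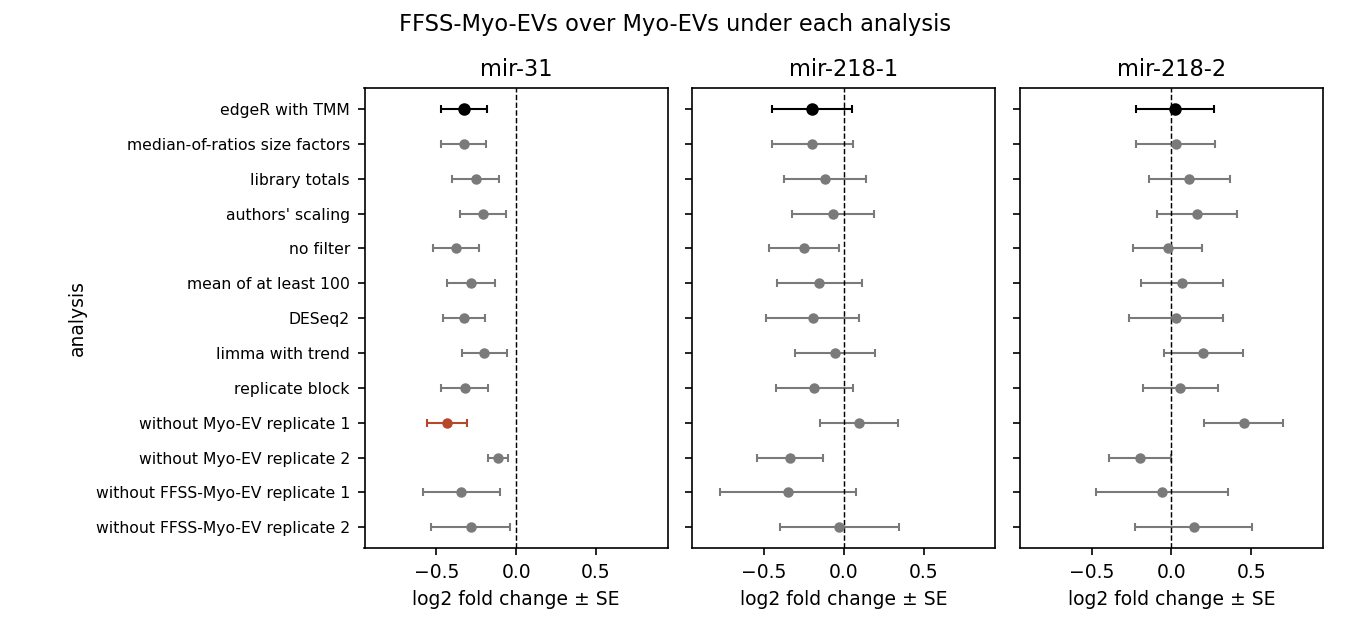
Log2 fold change of FFSS-Myo-EVs over Myo-EVs (x axis, bars are standard errors) of the 3 entries tested, under edgeR with TMM (black) and each alternative analysis (y axis), with an adjusted p under 0.05 in red. mir-31 lies between -0.43 and -0.11 and is called only without the first Myo-EV library, and the mir-218 entries lie on both sides of 0.

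The patterns over the 4 conditions were compared by the root-mean-square distance of centred log2 values, with 301 other entries of at least 100 in 1 condition. Nearest to mir-218-2 was mir-450a-2 at 0.108, and nearest to mir-218-1 the same entry at 0.125, with values of 475.5 in OB, 95.3 in BM, 136.9 in Myo-EVs and 156.4 in FFSS-Myo-EVs. Next for both were mir-450a-1 and mir-296. Nearest to mir-31 was mir-182 at 0.728, with 836.1 in OB, 38.1 in BM, 7486 in Myo-EVs and 8703 in FFSS-Myo-EVs, followed by mir-183 at 0.967 and mir-344b at 1.06. Nearest to mir-335 was mir-433 at 1.11, with 2439 in OB, 1.2 in BM, 0 in Myo-EVs and 0.55 in FFSS-Myo-EVs, and then mir-495 at 1.16 and mir-323 at 1.24. For mir-204 the 3 were mir-3072 at 0.575, mir-10b at 0.697 and mir-3544 at 0.758. The distances are descriptions over 4 conditions, of which those of the bone cells are single libraries, and near 0 they depend on the pseudocount of 1.

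The other miRNAs known to act on the same osteoblast factors differed in which of them the vesicles held. Of 12 named Runx2 regulators, 11 were in the table, and 6 were tested. FFSS-Myo-EVs had 1 of them higher and 3 lower, with a median log2 fold change of -0.29, beside 12.1% higher and 18.4% lower over all entries tested. Of the 3 lower, 2 are the mir-133a entries, copies that share a mature form and are 1 measurement in effect. The mir-133a entries reached the fit only through the Myo-EV group, and their calls are not used as support. mir-34c, a p53-responsive miRNA that represses osteoblast proliferation and Runx2, was the most abundant of the 6 tested in the vesicles. Its values were 21091.4 and 26314.2 without FFSS, 16754.1 and 17526.4 with FFSS, 14155.8 in OB and 181.5 in BM. It fell by 0.59 on the log2 scale, with a standard error of 0.16 and an adjusted p of 0.00187 in edgeR. mir-23a had 1751.7 and 1923.5 without FFSS, then 2907.9 and 2879.5 with FFSS, below 7537.7 in OB and 16969.6 in BM, and rose by 0.53 on the log2 scale (adjusted p = 0.000222 in edgeR).

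The muscle miRNA mir-133a was scarce. In FFSS-Myo-EVs the means of mir-133a-2 and mir-133a-1 were 5.2 and 7.2, against 18.8 and 19.1 in Myo-EVs. Both thus passed the filter of a mean of at least 10 only through the Myo-EV group. mir-133a-2 fell from 17.1 and 20.4 to 6.0 and 4.4, with a log2 fold change of -1.92 (adjusted p = 0.000736 in edgeR), and mir-133a-1 from 19.1 and 19.2 to 10.0 and 4.4, with -1.49 (adjusted p = 0.00647 in edgeR). Neither was called in DESeq2, with adjusted p-values up to 0.261 over the alternatives of mir-133a-1 and up to 0.0774 over those of mir-133a-2. The mir-30c entries, with means of 5390 and 6288 in FFSS-Myo-EVs, were not called (log2 fold changes of 0.012 and 0.0039). They were 3.83 and 3.84 times OB and 1.01 and 1.18 times BM. mir-338 was at 0 in every vesicle library and at 306.2 in BM.

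All 4 Osterix regulators in the table, of 5 named, were above 1000 in FFSS-Myo-EVs. Of these, 0 were called by edgeR, DESeq2 or limma, and 0 had an unadjusted edgeR p under 0.05. Over all entries tested, 30.5% were called by edgeR and 39% had an unadjusted edgeR p under 0.05. With 1 library left out mir-214 was called, in opposite directions, with a log2 fold change of -0.31 without the first Myo-EV library (adjusted p = 0.0345 in edgeR) and 0.32 without the second (adjusted p = 0.00798 in edgeR). mir-143, which marks mesenchymal and smooth muscle cells, had 274481.7 and 372549.3 without FFSS, 312517.3 and 326654.9 with FFSS and 269505.8 in OB. mir-145a, transcribed with it, had means of 25080 and 23173 in the vesicle groups and 16583.5 in OB. mir-214 had means of 5805 and 5983 against 8032.5 in OB, and mir-93 had 2892 and 3294 against 1734.6. All 4 were thus within 2 times the OB level in FFSS-Myo-EVs, with ratios from 0.745 to 1.90, whereas mir-31 was 5.94 times OB. Against BM, mir-143, mir-145a and mir-214 were 20.5, 25.9 and 26.5 times higher in FFSS-Myo-EVs and mir-93 was 1.15 times BM.

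Of the 8 entries known to act on Wnt inhibitors or on Wnt signalling through Gsk3b, 2 were higher and none lower, beside 30.5% called in either direction over all entries tested, and the median log2 fold change was 0.11. The 2 were the mir-26a entries, both with 0.66 on the log2 scale (adjusted p = 5.65e-05 and 6.24e-05 in edgeR), which share their mature form and are 1 measurement in effect. The mir-29 entries and mir-27a, which act on Dkk1, Sfrp2 and Sfrp1, were not called. mir-29a had a mean of 3890 in Myo-EVs and 3977 in FFSS-Myo-EVs, against 8577.5 in OB and 13759.6 in BM, and mir-27a had 4833 and 5889 against 11668.5 and 18291.4. The 4 entries of this list above 1000 in FFSS-Myo-EVs were below both OB and BM, with ratios to OB from 0.464 to 0.626. Over the 3 lists, the calls of mir-23a and of both mir-26a entries were lost without the first FFSS-Myo-EV library, with adjusted p-values in edgeR up to 0.0782, and that of mir-34c without either FFSS-Myo-EV library, up to 0.199. The call of mir-133a-1 was lost without either Myo-EV library and without the second FFSS-Myo-EV library.

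**Figure D5:**
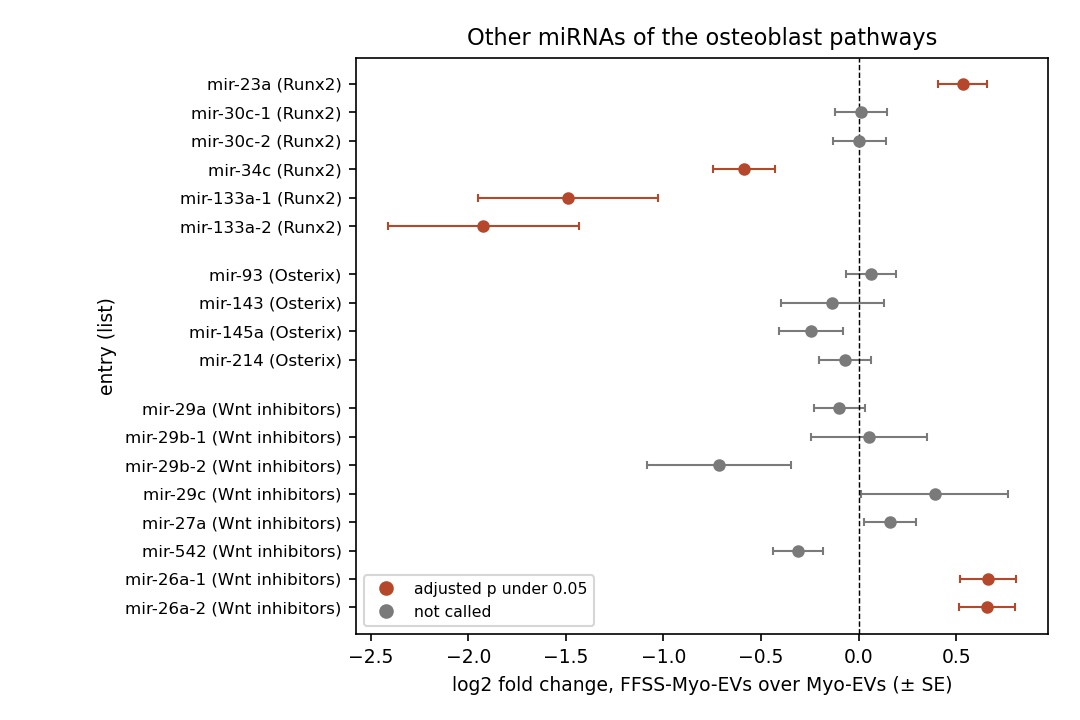
Log2 fold change of FFSS-Myo-EVs over Myo-EVs (x axis, bars are standard errors) of the tested entries of the 3 lists (y axis), with an adjusted p under 0.05 in edgeR in red. mir-23a and the mir-26a entries lie to the right of 0 and mir-34c and the mir-133a entries to the left, and no Osterix regulator is called.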

How the data were processed

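The authors prepared libraries with the NEBNext Small RNA kit, sequenced them on a NextSeq500 and matched grouped reads to miRBase precursors in CLC Genomics Workbench. They deposited a raw read count per entry and library and a normalized expression value. The latter is a signal that the authors took from counts set to a common total and then scaled by trimmed means, and each deposited library carries 1 constant. The submitters' processing notes name mm10. The miRBase release and the handling of reads that match several entries are not given in the sources used here. At the same normalized value, the deeper OB and BM libraries give narrower counting intervals than the vesicle libraries. Across entries the width follows the count.

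Levels and ratios were taken from the normalized values. FFSS-Myo-EVs were compared with Myo-EVs on the counts in edgeR 4.0.16 (R 4.3.3, TMM, quasi-likelihood) over all entries with a mean normalized value of at least 10. The design had no block. limma 3.58.1 and DESeq2 1.42.0, other scalings and filters, the replicate block and each library left out were alternatives. With 1 library left in a group, that library is assumed to vary like the other group. The replicate libraries differed by more than sampling noise (chi-square per degree of freedom 120.7 and 20.3), and p-values measure the spread between these libraries. The scripts were tested on simulated data. The entries, the lists and the likeness rule were chosen with earlier results of these data known. Named were the 6 entries, the 3 entries nearest to each in pattern, and list entries called or with at least 1000 in FFSS-Myo-EVs. mir-542 and the mir-29b and mir-29c entries were tested and not named by this rule, and mir-338 was chosen after its value was seen. The seed matches of 1 target gene are not reported here. Python 3.11.15, pandas 2.3.3 and scipy 1.17.1 were used.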

Additional observations from a re-analysis of the deposited data

How the results depend on the processing

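The number of entries called between the vesicle groups was 108 and stayed between 81 and 110 with the other scalings, filters and tools, against 44 to 132 with 1 vesicle library left out. The lowest, 44 and 45, came without the first and the second FFSS-Myo-EV library. The split of 43 higher and 65 lower became 54 higher and 39 lower with the authors' scaling, 49 and 46 with library totals and 57 and 37 with limma. With the replicate number as a replicate block, 110 were called and no osteoblast regulator was. The deviations of same-numbered libraries correlated at 0.209, and no source says what the number marks. Of the osteoblast regulators, 0 were called, and 1, mir-31, without the first Myo-EV library, where its log2 fold change was -0.43 (range -0.43 to -0.11 with 1 library left out). mir-218-1 ranged from -0.35 to 0.095 and mir-218-2 from -0.20 to 0.45 with 1 library left out, and without a filter mir-218-2 was at -0.024. The Runx2 list had 2 calls in place of 4 with a mean of at least 100 (which leaves out the mir-133a entries) and in DESeq2, and 2 to 3 with 1 library left out. The Osterix list had 0 to 1 (mir-214) and the Wnt list 0 to 3 with 1 library left out, the third being mir-542, named after its value was seen. The 0 came without the first FFSS-Myo-EV library. With totals of 1000000, the ratios of FFSS-Myo-EVs to OB were 5.70 for mir-31 and 0.261 for mir-218-2, and to BM 419.1 for mir-31, 1.09 for mir-218-1 and 1.21 for mir-218-2. With median-of-ratios scaling, the ratios to OB were 4.50 for mir-31, 0.202 for mir-218-1 and 0.207 for mir-218-2, and to BM 456.8, 1.19 and 1.32. With the mir-218 entries summed, the ratio to BM was 1.42, and their mean, an alternative chosen after seeing the data, gives the same 1.42 by construction. At a limit under the mir-218 ratios of 1.34 and 1.49, 3 osteoblast regulators passed against BM. Unless stated above, the cause was not tested. Counts of 0 to 4 in a vesicle group leave mir-335, mir-204 and mir-211 without a usable comparison between the vesicle groups.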

Other observations

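mir-335 belonged to a larger group of miRNAs that were abundant in osteoblasts and nearly missing from the myoblast vesicles. Of 127 entries with at least 1000 in OB, 29 had a mean below 10 in both vesicle groups, and 27 of these were also below 100 in BM. By position, 26 of the 29 lie on chromosome 12 between 109580233 and 109743496 in GRCm38, within the imprinted Dlk1-Dio3 region. The 3 elsewhere were mir-335, from the imprinted Mest locus, mir-455 and mir-340, of which mir-340 was at 16715 in BM. The 3 were named after their values were seen, and the position was not used in choosing the 29. How many of the 127 entries, or of the whole table, lie in that interval was not counted. The 26 of 29 therefore has no background share beside it.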
